A study of Drosophila melanogaster with 3 samples.

Results

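The genes of the cytoplasmic ribosome in Drosophila melanogaster were described here by the promoter peaks of GFP-tagged CG7839 (Noc1). They were taken as the protein-coding genes of Ensembl BDGP6 whose symbol begins with RpL or RpS, plus sta, and symbols ending in -like were left out. The rule gave 88 of 13968 protein-coding genes, of which 50 encode large-subunit and 38 small-subunit proteins. The measurements come from chromatin immunoprecipitation and sequencing (ChIP-seq) in whole embryos of both sexes, collected between 0 and 24 h of age. The embryos came from a transgenic line with GFP fused to the C-terminal end of CG7839, and chromatin was sheared by sonication and pulled down through the GFP tag with an anti-GFP antibody. All 3 samples are biological replicates of 1 group, which leaves no groups to compare, and whole embryos mix many cell types. The promoter driving the fusion is not given in the sources used here.

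Ribosomal proteins assemble with ribosomal RNA in the nucleolus into a large and a small subunit, which are exported and joined for translation. Noc1 belongs to the nucleolar complex proteins, which in yeast act in making the large subunit. Fly ribosomal protein genes are expressed strongly in growing cells, and loss of 1 copy of many of them gives the Minute phenotype of slow development and short bristles. Their transcription commonly begins in a polypyrimidine stretch, the TCT initiator, in place of the usual initiator element.

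Promoter sequence is shown first for a few strongly bound genes, chosen to show starts with and without the letters counted later. Each run covers 80 bases before to 15 bases after a transcript start, in the direction of transcription, from the RefSeq genome on dm6. Capitals mark CTTT at the start, the core of the TCT initiator, and the DRE, TATCGATA, the site of the factor DREF.
RpS27: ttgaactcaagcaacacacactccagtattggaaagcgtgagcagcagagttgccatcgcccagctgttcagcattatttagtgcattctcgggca
RpL34b: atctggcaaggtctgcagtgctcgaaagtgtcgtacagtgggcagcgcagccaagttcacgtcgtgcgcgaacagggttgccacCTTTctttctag
RpL14: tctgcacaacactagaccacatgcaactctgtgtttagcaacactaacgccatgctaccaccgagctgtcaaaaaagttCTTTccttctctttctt
RpL23A: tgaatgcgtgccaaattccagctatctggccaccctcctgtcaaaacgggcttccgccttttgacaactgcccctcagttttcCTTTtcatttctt
RpS25: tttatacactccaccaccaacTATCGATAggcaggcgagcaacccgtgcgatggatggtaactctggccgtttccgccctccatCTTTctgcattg
RpL34a: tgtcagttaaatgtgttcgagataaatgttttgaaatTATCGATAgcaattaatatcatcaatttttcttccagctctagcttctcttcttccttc
These runs lie at chr3R:25247499-25247594 on the minus strand for RpS27, chr3R:9401211-9401306 on the minus strand for RpL34b, chr3L:8600926-8601021 on the plus strand for RpL14 and chr3L:1668639-1668734 on the minus strand for RpL23A. That of RpS25 lies at chr3R:11216272-11216367 and that of RpL34a at chr3R:26059252-26059347, both on the minus strand. The start of RpS27 nearest its summit carries neither, though another of its starts has CTTT. The starts of RpL34b, RpL14 and RpL23A carry CTTT without a DRE, that of RpS25 carries both, and that of RpL34a carries a DRE without CTTT in the window searched.

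The data are lists of peak summits, ranked by the authors' signal value, which has no stated scale and was used only for ranks. Each replicate list and the list from pooled reads holds 30000 peaks. The IDR list, called for its cutoff on irreproducible discovery rate, holds 8188, which are the pooled peaks of largest signal. The files do not give read depth. No untagged line was analysed here, so dependence of these peaks on the tag was not tested. A gene was called bound where a summit lay within 500 bp of any of its transcript starts. The 3 replicates share 1 control, and nothing in the labels says how separate the embryo collections were.

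Cytoplasmic ribosomal protein genes carried Noc1 promoter peaks far more often than protein-coding genes at large. In the IDR list 72 of the 88 were bound (81.8%, 95% Wilson interval 72.5 to 88.5, counting error only), beside 22.8% of all protein-coding genes. The pooled list bound 78 of them (88.6%), beside 37.6%. Among the 8188 strongest peaks of replicate 1, 70 were bound (79.5%), beside 22.8% of all protein-coding genes. Replicate 2 bound 75 (85.2%), beside 25.1%, and replicate 3 bound 73 (83.0%), beside 26.4%. The mean share was 82.6% ± 2.86 (SD, n = 3), and it exceeded the share of the other genes by 58.2 ± 1.99 percentage points (SD, n = 3), in 3 of 3 replicates. This difference was many times the spread between replicates. With all 30000 peaks of each replicate, 77, 81 and 80 were bound in replicates 1, 2 and 3, beside 37.8%, 43.5% and 46.4% of all protein-coding genes. Genes with several annotated starts have more promoter to fall in. Among the 44 ribosomal protein genes with 1 annotated start, 31 were bound (70.5%), beside 16.8% of all protein-coding genes with 1 start, and of the 44 with more starts 41 were bound.

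**Figure D1:**
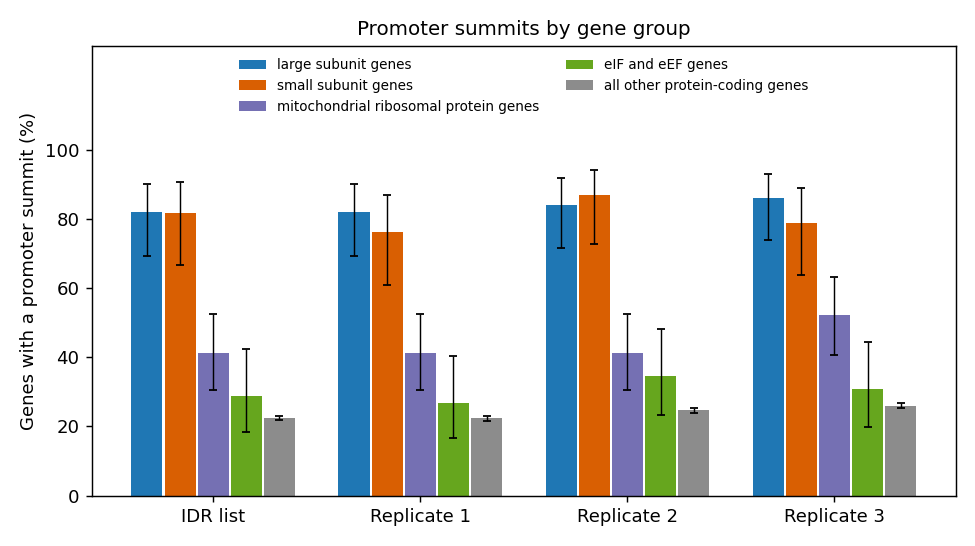
Bars give the percentage of genes with a promoter summit in the IDR list and among the 8188 strongest peaks of each replicate, by gene group, and error bars are 95% Wilson intervals over genes. Large and small subunit genes stand between 76.3% and 86.8% in all 4 lists, above the mitochondrial ribosomal protein genes, the translation factor genes and all other protein-coding genes.

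The peak summits lay close to the transcript start, mostly just upstream of it. Over the 72 bound genes the strongest IDR summit lay at a median of -22.5 bp from the nearest start of its gene (interquartile range -53.25 to -3, negative is upstream), while the 3115 other bound genes had a median of -153 bp. Of the ribosomal protein summits 48 of 72 (66.7%) lay within 50 bp of the start, beside 339 of 3115 (10.9%) for the other genes. The fullest 25-bp bin ran from -25 bp to the start and held 22 genes (30.6%), whereas that of the other genes ran from -150 to -125 bp (9.60%). By annotation 45 of the strongest summits lay upstream of the gene, 24 in its 5′ UTR and 3 in an intron, classes not counted over other bound genes. By offset from the nearest start 55 of the 72 (76.4%) lay upstream, beside 86.1% of the other bound genes. The positions held in each replicate: the medians were -42, -12 and -22 bp in replicates 1, 2 and 3, beside -162, -140 and -149 bp for the other bound genes. The ribosomal protein median was thus nearer the start by 125 bp ± 4.36 (SD, n = 3), in 3 of 3 replicates, and the shift exceeded the replicate spread. The share within 50 bp was 60.0%, 74.7% and 68.5%, and 7.71%, 13.9% and 11.2% for the other genes. Among genes with 1 annotated start the medians were -37 bp and -156 bp, with 58.1% and 7.96% within 50 bp. A summit counted for every gene within 500 bp, so the 3187 bound protein-coding genes had 2412 distinct strongest summits. Some other genes were thus measured from a peak nearer a neighbour's start, and their offsets were not recomputed with the nearest gene only. Summits of a gene repeated across replicates with a median SD of 19.6 bp (70 bound genes, range 1.0 to 178), close to the 19.9 bp of 2868 other bound genes. Genes varied more widely than that, with an interquartile range of -253 to -82 bp for the other bound genes.

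**Figure D2:**
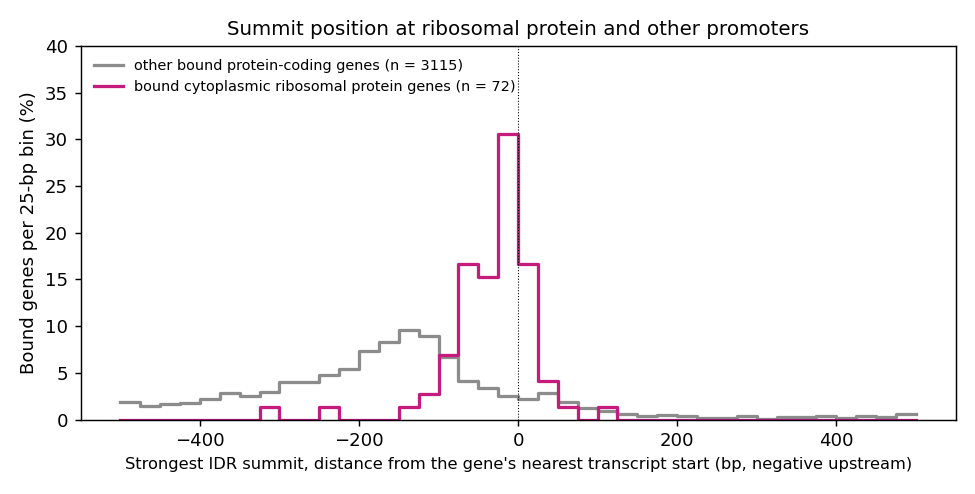
The x axis gives the distance in bp from a gene's nearest transcript start to its strongest IDR summit, and the y axis the percentage of bound genes in each 25-bp bin. Summits of the 72 bound cytoplasmic ribosomal protein genes peak just before the start, at 30.6% in 1 bin, and those of 3115 other bound genes form a broad hump centred farther upstream.

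The strongest peak of the set was that of RpS27, which encodes a small-subunit protein (3R, 25245955 to 25247514, minus strand). It ranked 326 in the IDR list and 240, 403 and 445 in replicates 1, 2 and 3, with offsets of -33, -23 and -26 bp. RpL34b ranked 479, and 390, 554 and 564 in the replicates, at -115, -140 and -121 bp, which is farther upstream than most of the set. RpL23A, whose product sits by the exit of the peptide tunnel, ranked 713, and its replicate offsets of -77, -76 and -78 bp were the most reproducible alongside those of RpL27. RpL14 ranked 715 and RpL7 824, with replicate ranks of 716, 621 and 917 for RpL14 and 839, 799 and 925 for RpL7. These genes stood near the top of every replicate. RpL41 (1113), RpS20 (1114), RpLP0 (1129) and RpL24 (1148) were also among the 10 strongest. Of these, RpLP0 lay at -14 bp and RpL24 at -17 bp, while RpS20 lay at -149 bp.

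Ranks of all bound ribosomal protein genes ran from 326 to 7321 with a median of 2250. Expressed as a percentile of the list, where 100 is the strongest peak, their median was 72.5, beside 64.8 for the other bound genes. In the replicates the percentile medians were 72.2, 72.4 and 64.8, and 68.3, 58.8 and 60.8 for the other genes. Among these strongest peaks of each replicate, the difference of 7.17 points ± 5.57 (SD, n = 3) was positive in 3 of 3 replicates but not large beside its spread. In the full lists of replicates 1, 2 and 3 it was 11.7, 14.9 and 12.1 points. Its mean there was 12.9 ± 1.74 (SD, n = 3), which is large beside the spread. The pooled list gave medians of 91.6 for the ribosomal protein genes and 79.7 for the other bound genes. Peak intervals were 374.5 bp wide at the median, beside 347 bp for all IDR peaks. Presence of a promoter peak and its position thus set these genes apart in the strongest peaks and in the full lists. Rank did so by a difference large beside its spread in the full lists only.

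**Figure D3:**
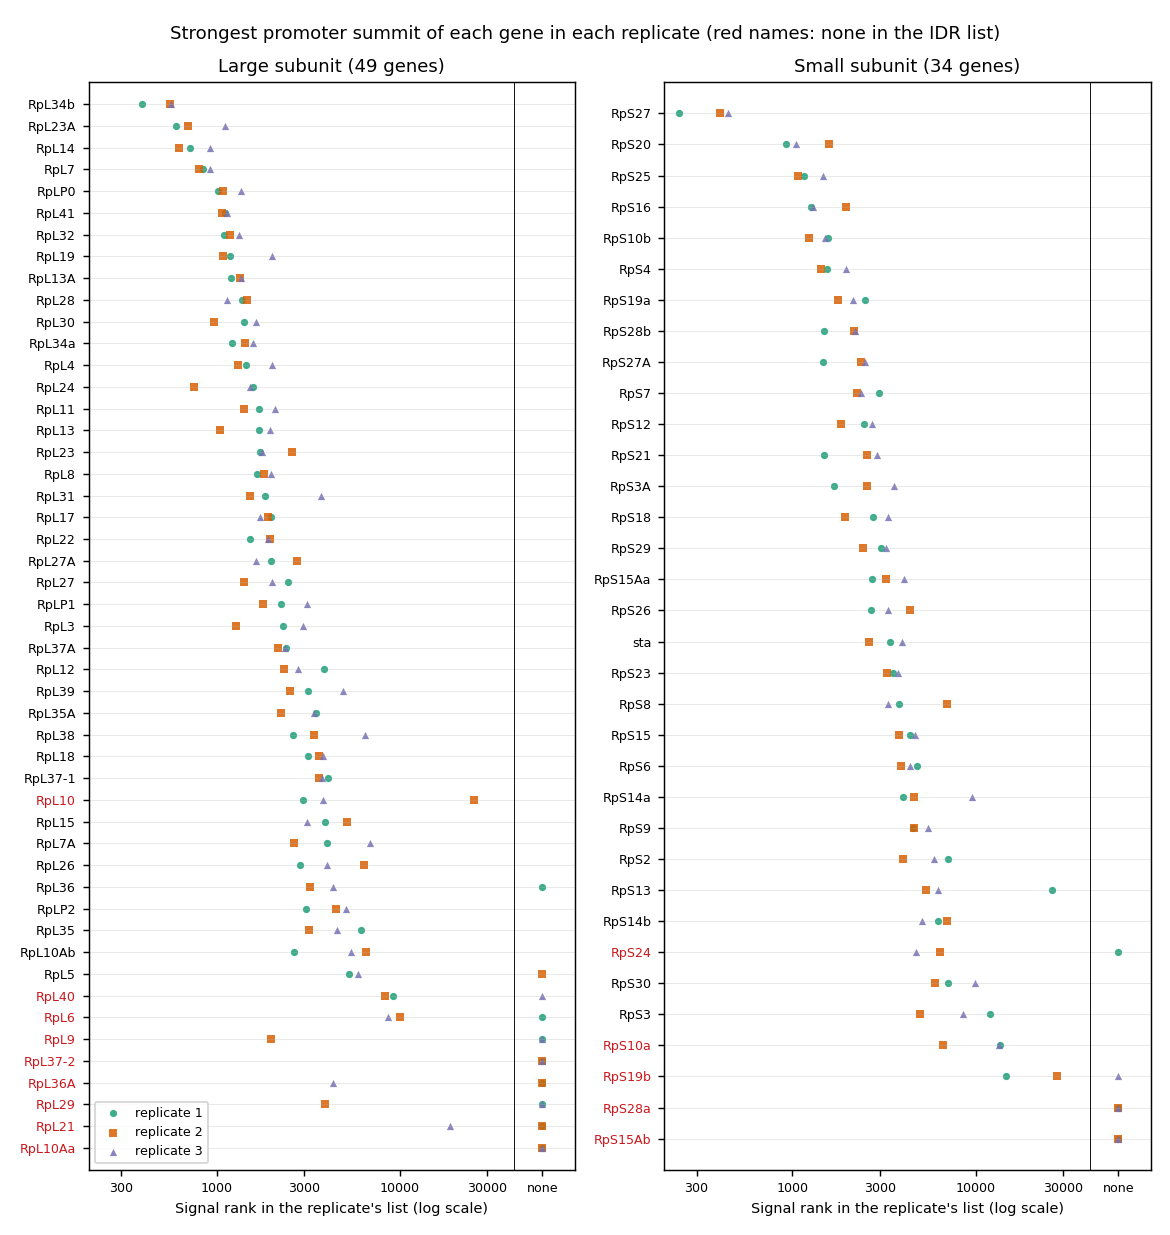
Each row is 1 of 83 of the 88 genes, and points give the signal rank of its strongest promoter summit among the 30000 peaks of replicates 1, 2 and 3 (log scale, 1 is strongest, "none" where there is no promoter summit). Red names have no promoter summit in the IDR list. The 3 points of most genes lie close together, from RpS27 at 240 to 445 downward, and scatter or drop out mostly among the lowest rows.

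Large- and small-subunit genes were bound about equally often but differed in peak strength. In the IDR list 41 of 50 large-subunit genes (82.0%) and 31 of 38 small-subunit genes (81.6%) were bound. In the replicates the large-subunit share was higher by 5.7, lower by 2.8 and higher by 7.1 percentage points, a mean difference of 3.33 ± 5.36 (SD, n = 3), which is smaller than the replicate spread. In the full lists of replicates 1, 2 and 3 the difference was -8.1, -4.7 and -2.1 points (mean -4.97 ± 3.01, SD, n = 3). Its sign thus depended on the length of the list. The percentile of large-subunit peaks was higher, with an IDR median of 77.1 (interquartile range 59.9 to 84.8) against 66.5 (44.9 to 76.0). The difference in medians was 10.9, 13.7 and 16.2 points in replicates 1, 2 and 3 (mean 13.6 ± 2.65, SD, n = 3), beyond the replicate spread in 3 of 3. The 2 sets of genes still overlapped widely, with RpS27 above every large-subunit gene. In the upper 4094 peaks of the IDR list stood 37 of the 41 bound large-subunit genes (90.2%) and 20 of the 31 bound small-subunit genes (64.5%). Of the other bound protein-coding genes 63.4% stood there, close to the small-subunit share. Large-subunit summits also lay slightly farther upstream, at an IDR median of -29 bp against -16 bp, with replicate differences of -16.0, -16.5 and -25.0 bp (mean -19.2 ± 5.06, SD, n = 3). In the full lists the offset differences were -8.5, -8.0 and -25.0 bp (mean -13.8 ± 9.67, SD, n = 3). No p-value is given for these differences, since genes are not replicates and the 3 replicates hold the same genes.

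The stalk of the large subunit, which recruits translation factors, is built from the products of RpLP0, RpLP1 and RpLP2, and all 3 genes were bound. RpLP0 ranked 1014, 1081 and 1362 in the replicates, RpLP1 2254, 1784 and 3107, and RpLP2 3078, 4485 and 5063. Their order was the same in each replicate, RpLP0 highest and RpLP2 lowest. IDR offsets were -14, -29 and -84 bp in that order. RpL5 and RpL11 encode the large-subunit proteins that carry 5S ribosomal RNA. RpL11 was strong (IDR rank 1620, replicate offsets -49, -43 and -51 bp), and RpL5 was weak (5793), with no promoter summit in replicate 2.

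The 3 weakest bound genes all encode small-subunit proteins. RpS13 ranked 7321, and 26044, 5330 and 6264 in the replicates, so that replicate 1 stood far below the others. RpS3, whose product lies at the mRNA entry channel, ranked 7012, with 11946, 4956 and 8507 in the replicates. RpS30, made as a fusion with a ubiquitin-like protein, ranked 6368. RpS6, the target of S6 kinase, ranked 4161 and sat downstream of its start at 61 bp. Other downstream summits were those of RpS9 at 112 bp and RpS18 at 34 bp. RpS9 has several starts, and its replicate offsets of -113, 55 and -112 bp are each measured from the nearest of them. The most upstream summits were those of RpL23 (-320 bp), RpL10Ab (-244 bp) and RpS20 (-149 bp), and the nearest IDR summit of an unbound gene was that of RpS19b, at -890 bp. RpL23 and RpL10Ab each had a further IDR summit nearer the start, at -117 and -45 bp. Their strongest summit switched between positions across replicates, with offsets of -319, -12 and -322 bp for RpL23 and -245, -34 and -79 bp for RpL10Ab. RpS20 stayed upstream in each replicate, at -144, -177 and -164 bp.

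A summit within 100 bp of the IDR summit was found among the strongest peaks of all 3 replicates for 62 of the 72 bound genes. For 8 it was found in 2 replicates, among them RpL18, RpL23, RpL36, RpL5, RpS13, RpS14a and RpS30, and for RpL10Ab and RpS3 in 1. RpL36 ranked 2813 in the IDR list, and 3223 and 4340 in replicates 2 and 3, yet had no promoter summit among the 30000 peaks of replicate 1. Matches within 100 bp were not counted for other bound genes. In the full lists 70 of the 72 bound genes had a promoter summit in all 3 replicates, beside 2868 of 3115 other bound genes. Recurrence in the full lists was thus common in both sets.

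The 16 genes with no promoter summit in the IDR list were of mixed kinds. They included RpL6, RpL9, RpL10, RpL21, RpL29, RpL36A, RpL40 and RpS24, which have no paralogue by symbol, and RpL10Aa, RpL37-2, RpS10a, RpS15Ab, RpS19b and RpS28a, which each have 1. Several were strong in a single replicate. RpL9 ranked 1970 in replicate 2, at 64 bp, and had no promoter summit in replicates 1 and 3. RpL29 ranked 3923 in replicate 2 alone and RpL36A 4307 in replicate 3 alone, at -5 and -20 bp. RpS24 ranked 6363 and 4752 in replicates 2 and 3. RpL10 ranked 2971, 25244 and 3817 in the replicates and 16590 in the pooled list, so a strong summit in replicates 1 and 3 did not carry over to the pooled list. Its SD of rank, 12600, was the largest of the set, followed by RpS13 (11700). RpL40 ranked 9181 and 8339 in replicates 1 and 2, RpL6 ranked 9991 and 8597 in replicates 2 and 3, and RpL21 was found in replicate 3 alone, at rank 18703. RpL40 encodes a ubiquitin fusion, as does RpS27A, which was bound at rank 1873. Of the 88 genes, 74 had a promoter summit in the full lists of all 3 replicates, a count not made over all protein-coding genes. A promoter summit was absent from all 3 full lists for 4 genes (RpL10Aa, RpL37-2, RpS15Ab and RpS28a).

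Those 4 are all copies from paralogue pairs. Fly ribosomal protein genes include duplicates of which 1 copy serves most cells, and RpS10a and RpS19b are known for expression in the germ line. Symbols gave 9 pairs. In 7 of them exactly 1 copy was bound, and in 2 both copies were. The bound copies of these pairs included RpL10Ab (rank 4185), RpL37-1 (3777), RpS10b (1391), RpS15Aa (3240), RpS19a (2154) and RpS28b (1776). Among the strongest peaks of replicates 1, 2 and 3, 7, 6 and 8 pairs had 1 copy bound, and no pair had 0. The partners were not all empty: RpS10a ranked 13536, 6639 and 13476 in the replicates, beside 1557, 1233 and 1498 for RpS10b. RpS19b ranked 14625 and 27919 in replicates 1 and 2. In each replicate the bound copy outranked its partner in all 7 pairs. The IDR list that defined the bound copy comes from the same replicates, so this order is not independent of how the pairs were chosen. Taken over genes, 61 of 70 genes with no pair by symbol were bound (87.1%) and 11 of 18 genes in pairs (61.1%). Genes whose symbols end in -like were not counted as copies.

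The start regions of 2 of these pairs are shown because the copies differ in peaks. Runs cover the same span as above, from the RefSeq genome on dm6, and capitals again mark CTTT at the start.
RpS19a: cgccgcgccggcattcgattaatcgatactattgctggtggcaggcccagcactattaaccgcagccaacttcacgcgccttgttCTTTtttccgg
RpS19b: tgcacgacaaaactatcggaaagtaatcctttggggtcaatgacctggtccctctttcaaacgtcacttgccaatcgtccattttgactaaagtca
RpS28b: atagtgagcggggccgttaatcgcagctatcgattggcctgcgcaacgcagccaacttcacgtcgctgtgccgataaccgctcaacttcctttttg
RpS28a: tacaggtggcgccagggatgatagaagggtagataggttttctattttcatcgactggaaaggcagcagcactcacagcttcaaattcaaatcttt
They lie at chrX:16637814-16637909 (plus strand) for RpS19a and chr3R:23933515-23933610 (minus) for RpS19b. That of RpS28b lies at chrX:9554543-9554638 (plus) and that of RpS28a at chr3R:30022633-30022728 (minus). CTTT stands at the start of RpS19a but not RpS19b, and at neither RpS28 start within 5 bases. The copies share little sequence there: in the 500 bases on either side of the outermost start, the longest identical run was 11 bases for RpS19 and 13 for RpS28.

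Both copies were bound for RpL34 and RpS14. RpL34b outranked RpL34a in every replicate (390, 554 and 564 against 1219, 1420 and 1570), so both were among the strong genes of the set. RpS14a and RpS14b are tandem copies on X whose gene starts lie 1156 bp apart, and their longest identical run near the start is 122 bases. It lies downstream of the summits, from 304 to 425 bp after the start of RpS14a and 317 to 438 bp after that of RpS14b. RpS14a ranked 4023, 4584 and 9558 and RpS14b 6265, 6936 and 5130, and the order of the copies differed between replicates.

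Promoters shared with another gene were about as common in the ribosomal set as among bound genes at large. Of the 72 strongest summits, 32 (44.4%) lay within 500 bp of another protein-coding gene's start, beside 48.9% of all bound protein-coding genes, with 48.8% for large-subunit and 38.7% for small-subunit genes. In the replicates the shares were 44.3%, 41.3% and 42.5%, beside 50.1%, 49.9% and 51.9%. The partner was divergent for 31 of the 32, and on the same strand for RpS27A, which shares its start with Ip259. No summit was shared with another ribosomal protein gene. Where a summit was shared, the ribosomal protein start was the nearer in 32 of 34 gene pairs. The exceptions were RpL23, where CG13531 was nearer (-236 bp against -320 bp), and the tie of RpS27A. Divergent partners and nearer starts were not counted over all bound genes. Ribosomal protein summits lie close to their own starts, as given above, so a nearer start is not a separate result.

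Some strong shared peaks are given as examples. The RpS27 summit lay at -21 bp from its start and -123 bp from that of Nup37, a nuclear pore gene whose start is 144 bp away. The RpL34b summit at -116 bp lay -153 bp from CG8132, a more even split. RpL14 shares its promoter with Nelf-E, a subunit gene of the negative elongation factor (-35 against -92 bp), and RpL7 with Ripalpha, the gene of a protein that interacts with replication protein A (-42 against -84 bp). RpL41 was paired with NaCP60E, RpS20 with CG17271, RpLP0 with CG7130, RpS25 with CG4820 and RpL32 with CG7943. The closest divergent starts were those of RpL13 and Dref, the gene of the DREF factor, 84 bp apart, with the summit at -32 and -52 bp. RpL28 shared with eIF1, a translation initiation factor gene, at -59 and -322 bp, and RpL36 with Mybbp1A at -11 and -279 bp.

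Sequence at the start set the genes apart from others irrespective of the peaks. CTTT with its C within 5 bases of a start, on the sense strand, was found for 57 of the 88 genes (64.8%), beside 8.06% of all protein-coding genes. Large- and small-subunit genes had near-equal shares (64.0% and 65.8%). Among the bound genes 69.4% had it and among the 16 unbound 43.8%. Read the other way, 50 of 57 genes with CTTT were bound (87.7%) and 22 of 31 without (71.0%). In the replicates the shares were 82.5%, 91.2% and 84.2% with CTTT and 74.2%, 74.2% and 80.6% without. The strongest genes without it were RpL41, RpS20, RpL34a, RpS10b and RpL11.

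In the IDR list the position of the peak differed little between genes with and without these letters within 5 bases of a start. The median offset was -22.5 bp for bound ribosomal protein genes with CTTT and -22.0 bp for those without. In replicates 1, 2 and 3 the medians were -42, -14.5 and -28 bp with CTTT and -42, -11 and -14 bp without. The 328 other bound genes with CTTT had a median of -162 bp, and 14.6% of their summits lay within 50 bp of the start, beside -152 bp and 10.4% for other genes without. Summits near the start were thus common at ribosomal protein promoters with and without CTTT in this window, and uncommon at other promoters with CTTT. Within 10 bases of a start 84.1% of the ribosomal protein genes had CTTT. Some genes counted as without it therefore carry it slightly farther off. A part of the initiator in peak position was not tested.

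Several other motifs were counted on both strands within 100 bp of a start. The DRE was found at 25 of 88 genes (28.4%), beside 8.48% of all protein-coding genes and 11.9% of all bound ones. CGATA, the core bound by BEAF-32, was found at 65.9%, beside 44.7%, and every DRE contains it. The mitochondrial ribosomal protein and factor genes had CGATA at 58.9% and 63.5%. High shares of the DRE and CGATA were thus not particular to cytoplasmic ribosomal protein genes. CACGTG, the E-box bound by Myc, was found at 21.6%, beside 3.68%, with 28.0% for large-subunit and 13.2% for small-subunit genes. It was less frequent at mitochondrial ribosomal protein genes (4.11%) and factor genes (9.62%). TATAAA was found at 23.9%, below the 34.1% of all protein-coding genes. Motif 1 was found at 10.2% (5.84%), Ohler 7 at 6.82% (5.93%) and Ohler 6 at 5.68% (1.90%), with shares of all protein-coding genes in parentheses. Mitochondrial ribosomal protein genes had slightly higher shares of Motif 1 and Ohler 7 than the cytoplasmic ones, and a lower share of Ohler 6. Within 100 bp of the strongest summit 17 of 72 genes had a DRE (23.6%), beside 5.64% of the 2412 distinct strongest summits of all bound genes. Among the strongest were RpL41, RpS25, RpL19 and RpL28. The 201 bp around the strongest summit had a median GC content of 41.8%, beside 33.3% for all bound genes. Among summits within 50 bp of a start the medians were equal, 42.3% for ribosomal protein genes and 42.3% for other genes, so GC content moved with distance from the start, and its part in the peak positions was not tested. A motif match is a description of letters and not of binding.

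Of the 88 genes 17 lie on arm 2L, 19 on 2R, 14 on 3L, 22 on 3R, 15 on X and 1 on 4. All 15 on X were bound, as was RpS3A on arm 4, against 13 of 17 on 2L, 14 of 19 on 2R, 13 of 14 on 3L and 16 of 22 on 3R. Of all protein-coding genes 23.1% were bound on X, 5.0% on 4, 22.0% on 2L, 21.2% on 2R, 25.3% on 3L and 23.2% on 3R. Introns of ribosomal protein genes house many small nucleolar RNA genes, whose products guide modification of ribosomal RNA. At least 1 such gene lay inside 29 of the 88, and 27 of these hosts were bound (93.1%), against 45 of the 59 other genes (76.3%). Of the 55 other protein-coding genes that host one, 26 were bound (47.3%). Among ribosomal protein genes with 1 start 12 of 13 hosts and 19 of 31 others were bound, and among those with more starts 15 of 16 hosts and 26 of 28 others. Of the 16 unbound genes 13 have 1 start. RpS7 holds 7.

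Other genes of translation gave the comparison for the position of the peak. Of 73 mitochondrial ribosomal protein genes 30 were bound (41.1%), at a median of -153.5 bp, and 0 of the 30 had its strongest summit within 50 bp of the start. In the replicates the median offsets were -149, -144.5 and -149 bp, with 1, 2 and 3 genes within 50 bp. Of 52 genes for initiation and elongation factors 15 were bound (28.8%), at a median of -77 bp. In replicates 1, 2 and 3 their medians were -102, -8.5 and -55 bp, with 4 of 14, 9 of 18 and 6 of 16 summits within 50 bp, so in replicate 2 their median was nearer the start than that of the ribosomal protein genes. Of the 15 IDR summits 5 lay within 50 bp of the start: eEF1gamma (-12 bp), eEF2 (6 bp), eEF5 (23 bp), eIF3m (-8 bp) and eIF4G2 (17 bp). The summit counted for eIF1, at -322 bp, is the one it shares with RpL28. Among the 5 genes whose symbols end in -like, RpLP0-like alone was bound, at rank 4308 and -36 bp. Of the nucleolar complex genes Noc1, Noc2 and Noc3, only Noc2 was bound in the IDR list, at -183 bp.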

How the data were processed

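ChIP-seq peaks of GFP-tagged CG7839 were deposited for 3 replicates of 1 group, with a pooled list and an IDR list, on dm6. Per the text files deposited beside them, the authors made each list from alignments and a common control. The aligner, caller, filters and depth were not given in the sources used here. The deposited signal value ranked peaks within a list only. The deposited −log10 q value was not used. Summits were the interval start plus the peak offset, and 2 to 7 per list that passed the interval end were placed on its last base.

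Gene models were those of Ensembl release 115, and bases were read from the RefSeq genome on dm6. A summit within 500 bp of any transcript start counted for that gene. The replicates' 8188 strongest peaks gave means ± SD. Positions were checked on simulated summits. Analysis used Python 3.11.15, numpy 2.4.6, pandas 2.3.3, scipy 1.17.1 and matplotlib 3.10.9. Members, lists, motifs and comparisons were chosen with earlier results of these data known, so no test was made over the list.

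Genes were named by rule: the 10 strongest, the 10 strongest with a shared summit, paralogues, unbound and stalk genes, the 3 most upstream, most downstream and most variable, those matched in fewer than 3 replicates, and up to 5 each without CTTT and with a DRE. Others named were chosen after their values were seen, and a few that the rule names are not reported here. Alternatives were windows of 250 and 1000 bp, other lists, the nearest start only and each replicate left out.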

Additional observations from a re-analysis of the deposited data

How the results depend on the processing

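Over 8 results and 61 alternatives, 46 values stayed within the replicate spread, counting interval or 1.5 times, and 15 did not. The number of bound ribosomal protein genes was 57 in the upper 4094 IDR peaks, 78 in the pooled list and 65 to 67 when a replicate was left out, which also makes the list stricter (5984 to 6130 peaks kept). The median offset stayed between -12.5 bp, from the outermost start only, and -27 bp in the pooled list. The large-minus-small share was 21.4 percentage points in the upper 4094 peaks, where the stronger large-subunit peaks are kept. It ranged from 0.316 to 9.58 on leaving out a replicate, and was 9.58 without replicate 2. In the pooled list it was -1.47, and with a window of 1000 bp it was -2.21. The median percentile was 54.2 in the upper peaks and 91.6 in the pooled list, which are lists of other lengths. The shared-promoter share was 22.2% at 250 bp, 63.0% at 1000 bp, 49.1% in the upper peaks, 41.0% in the pooled list and 41.5% to 43.3% with a replicate left out. The mean replicate share bound was 67.0% in lists cut to 4094 peaks and 90.2% in full lists. The share with CTTT was 22.7% within 2 bases, 84.1% within 10 bases and 35.2% at the outermost start, beside 3.27%, 14.9% and 5.63% of all protein-coding genes. Pairs with 1 bound copy numbered 5 to 8. No paired analysis was possible because the labels give 1 group. With 1 group, no untagged control and unknown depth, these values describe peak lists, not occupancy.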

Other observations

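A search for words of 8 letters, chosen after the sequences were seen and not tested, looked from 100 bases before to 50 bases after each start on both strands. Of the 61 words held by at least 9 ribosomal protein genes, the one most frequent beside all protein-coding genes was CCGGAAAC, which none of the motifs counted above covers. It was held by 17 of the 88 genes (19.3%), beside 0.501% of all protein-coding genes. Of the 17, 16 were bound, beside 81.8% of the 88 genes. Of the 17, 14 encode large-subunit and 3 small-subunit proteins, among them RpL7, RpL11, RpL32 and RpS18. The word CTTTCTTT, a run of pyrimidines, was held by 27 genes (30.7%), beside 1.69%, counted on either strand and not only at the start. CCAACTTC was held by 9 genes (10.2%), beside 0.773% of all protein-coding genes, and CTGTCAAA by 10 (11.4%), beside 1.35%. The holders of these 2 words were all bound, but 81.8% of the 88 genes were bound whatever their words. Holders of other words were bound less often, such as 6 of 9 for GGAAAAGA, so these counts do not set the holders of a word apart.

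In 10 bound genes a further IDR summit lay in the promoter window, and in each the spacing of the summits was 199 to 212 bp. Other bound genes with a further summit were not counted. Over the whole IDR list no neighbouring summits were closer than 199 bp, and 266 of the 344 gaps of 500 bp or less (77.3%) fell in the same range. The spacing was thus not particular to these genes. The position of the strongest summit of RpL23 and RpL10Ab changed between replicates.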
